A study of Mus musculus with 16 samples.

Results

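Late in their development in the bone marrow, neutrophils switch on genes for leaving it and for acting in tissues, and 9 such genes were followed here in mice: Cxcr2, Cxcr4, Csf3r, S100a8, S100a9, Mmp8, Mmp9, Retnlg and Padi4. They were taken by symbol, as late neutrophil genes of release, migration and effector function. The choice was made with earlier results of these data known. They are 9 of the 57132 Ensembl genes counted. All 9 passed the filter on low counts, as did 19152 genes in all.

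Neutrophils are held in the marrow by CXCR4, the receptor for the stromal chemokine CXCL12, and drawn out by CXCR2, the receptor for the ELR+ CXC chemokines. G-CSF, acting through the receptor that Csf3r encodes, drives their production and release. The late cells carry calprotectin, the dimer of S100A8 and S100A9, in their cytosol, keep the collagenase MMP8 and the gelatinase MMP9 in granules, and use the histone-citrullinating enzyme PADI4 to form extracellular chromatin traps.

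Marrow RNA was sequenced from 2 genotypes under 4 treatments, with 2 libraries in each of the 8 groups. The KO groups were Nrf2-/- mice, bred from Nrf2+/- animals and carrying an inactive form of the gene in all cells, given BMX-001, 5-FU, both drugs or PBS. The WT groups were C57BL/6 males of 8 to 10 weeks given the same 4 treatments. The sources used here give neither age nor sex for the KO mice. BMX-001, named as a radioprotector in the series title, was dosed at 0.5 mg/kg every 3 days, starting 24 h ahead of 5-FU. 5-FU (5-fluorouracil), an antimetabolite that kills dividing cells, was dosed at 20 mg/kg and again on day 7. Bone marrow was collected on day 10. PBS was the vehicle control. The labels speak of duplicates and do not say whether these came from separate animals, so p-values measure only the spread between these libraries, which may be technical.

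Library totals were 27305707 to 36588168 counts in KO and 34387432 to 39909188 counts in WT. Nfe2l2, the gene for NRF2, averaged 8.97 ± 3.32 CPM in KO and, in WT, 116 ± 6.18 CPM (SD over 8 libraries of each genotype; CPM are counts scaled by library size and TMM factor). The replicate 1 library of KO mice given BMX-001 stood apart. On the first principal component it lay at 119.9, against -33.72 to 9.326 for the other 15. Its nuclear RNA Malat1 was at 12210 CPM, against 2549 to 5345 CPM elsewhere, and its Mpo, the peroxidase of early granules, at 283.5 CPM, against 1385 to 2272 CPM. It held the highest S100a8, S100a9, Retnlg, Csf3r and Padi4 of the 16 libraries and the lowest Mmp8 and Mmp9. Results that rest on it are therefore given with it and in a 15-library fit without it. Markers of marrow lineages were measured in every library: Ly6g of neutrophils at 66.65 to 134.4 CPM, Alas2 of erythroid cells at 2030 to 4171 CPM and Cd79a of B cells at 109.2 to 208.9 CPM. Bulk RNA cannot tell fewer cells of a type from less RNA per cell, which holds for every level below.

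Of the 9 genes 8 had an upstream sequence in the RefSeq table (build GRCm38.p6, an earlier build than that of the counts), all but Mmp9. The 250 bases before the start are shown for Cxcr4, the gene that passed the test below, and for the S100a8 and S100a9 pair, which lie near each other on chromosome 3. Capitals mark matches, on either strand, to TATAAA (a core promoter box), GAGGAA (core of the PU.1 motif) and TTGCNNAA (C/EBP-type motif); each line reads 5′ to 3′ on the gene's own strand. The windows are chr1:128592300-128592549 (minus strand) for Cxcr4, chr3:90668821-90669070 (plus strand) for S100a8 and chr3:90695722-90695971 (minus strand) for S100a9.
Cxcr4: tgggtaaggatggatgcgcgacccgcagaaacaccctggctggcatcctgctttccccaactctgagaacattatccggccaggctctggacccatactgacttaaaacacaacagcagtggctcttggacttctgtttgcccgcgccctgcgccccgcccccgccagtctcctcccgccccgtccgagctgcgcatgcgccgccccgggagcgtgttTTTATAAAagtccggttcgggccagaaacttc
S100a8: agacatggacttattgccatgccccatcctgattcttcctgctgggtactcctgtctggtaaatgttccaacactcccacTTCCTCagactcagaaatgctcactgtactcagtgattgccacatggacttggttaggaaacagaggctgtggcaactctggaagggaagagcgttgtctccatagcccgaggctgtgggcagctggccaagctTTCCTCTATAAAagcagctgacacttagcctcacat
S100a9: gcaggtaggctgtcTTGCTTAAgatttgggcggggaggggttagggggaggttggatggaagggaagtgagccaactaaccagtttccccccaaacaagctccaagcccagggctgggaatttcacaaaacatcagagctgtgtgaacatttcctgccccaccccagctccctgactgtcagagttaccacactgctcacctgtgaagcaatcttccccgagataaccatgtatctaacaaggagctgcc

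The Cxcr4 window held TATAAA 30 to 25 bases before the start, overlapping a match on the other strand. S100a8 held the same motif at the same place, directly after 1 of its 2 GAGGAA matches (read as TTCCTC). Padi4 held it 31 to 26 bases before its start. TATAAA was thus found in 3 of the 8 windows, against 12.4% of all 32851 RefSeq mouse promoters. GAGGAA was found in 4 (Cxcr2, Mmp8, S100a8 and Csf3r), against 23.3% of promoters. TTGCNNAA was found in 3 (Mmp8, Retnlg and S100a9), against 9.56% of promoters. The core of the antioxidant response element to which NRF2 binds, searched as TGACNNNGC on both strands, was in 0 of the 8 windows and in 10.2% of promoters. These are matches of letters, and no binding was measured.

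Per kilobase of exon the genes spanned a wide range, set out here by the median over the 16 libraries. S100a9 stood highest at 14846 CPM per kb (range 11015 to 21092), and S100a8 next at 7014 (5903 to 10003). Retnlg followed at 1569 CPM per kb (1137 to 2201). These 3 did not overlap in range with each other or with the genes below. Mmp8 at 289.48 and Mmp9 at 286.24 CPM per kb overlapped almost throughout, and Cxcr4 at 196.13 (159.73 to 266.65) overlapped with both. Csf3r at 77.82 and Cxcr2 at 71.85 CPM per kb also overlapped. Padi4 was lowest at 24.05 CPM per kb (20.20 to 34.46), below every value of Cxcr2. Exon lengths were taken from a GENCODE annotation of GRCm38 and not from the authors' own.

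**Figure D1:**
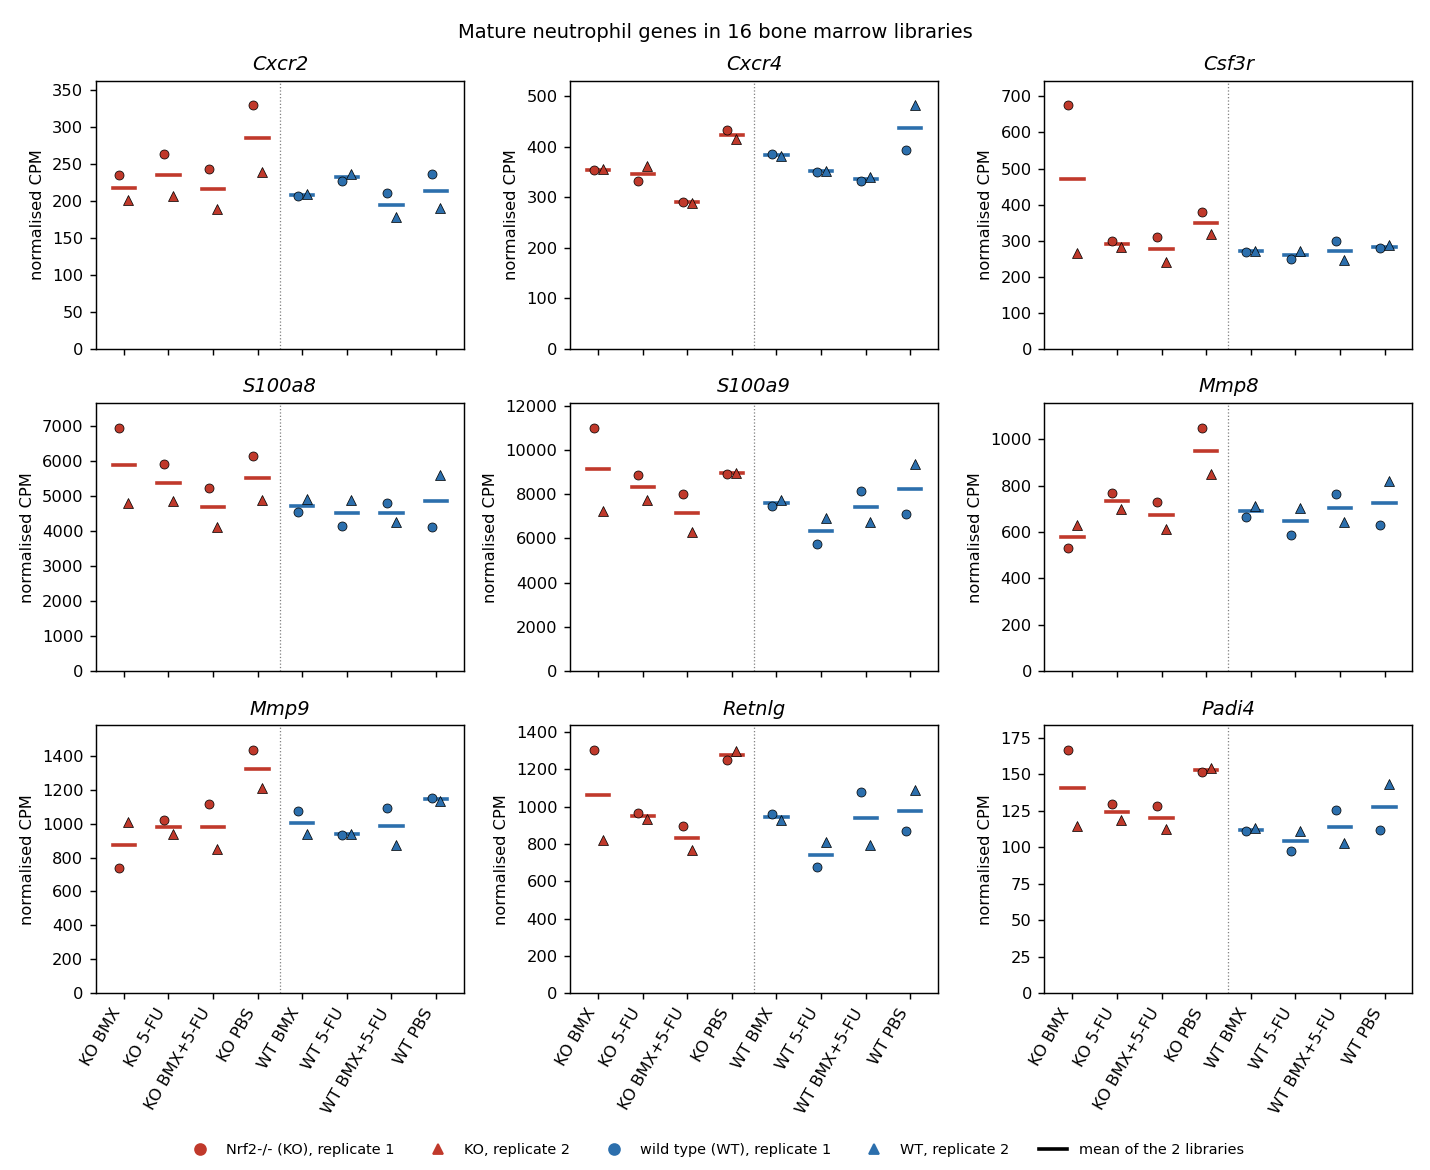
Normalised CPM of the 9 genes in each of the 16 libraries (y axis, from 0), with KO groups in red left of WT groups in blue; circles are replicate 1, triangles replicate 2 and bars the mean of the 2 libraries of a group. Cxcr4 is highest with PBS in both genotypes, and the replicate 1 library of KO mice given BMX-001 stands far above the rest for Csf3r, at 675.1 CPM.

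Cxcr4 (ENSMUSG00000045382.7, chromosome 1), the receptor that retains neutrophils in the marrow, was the only 1 of the 9 genes that edgeR called in a planned comparison of all 16 libraries. In KO marrow it stood at 353.5 and 355.7 CPM with BMX-001, 331.5 and 362.3 CPM with 5-FU, 291.5 and 288.8 CPM with both drugs, and 432.5 and 415.7 CPM with PBS. In WT marrow it stood at 385 and 381.4 CPM with BMX-001, 350.5 and 352.8 CPM with 5-FU, 331.5 and 341 CPM with both drugs, and 393 and 482.1 CPM with PBS. In both genotypes PBS marrow was highest and marrow given both drugs lowest, and no library given a drug reached a PBS library of its genotype.

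KO marrow given both drugs averaged 290.1 ± 1.92 CPM of Cxcr4 and KO PBS marrow 424.1 ± 11.9 CPM (SD, n = 2 each). The fall was to 0.684-fold (95% interval 0.581 to 0.806), a log2 fold change of -0.55 ± 0.11 (SE; edgeR quasi-likelihood test, Benjamini-Hochberg adjusted p = 0.0452 over all genes). Of all genes tested 0.574% were called lower in this comparison. The same contrast in WT gave -0.38 ± 0.11 (336.3 ± 6.69 CPM with both drugs and 437.6 ± 63 CPM with PBS, SD, n = 2 each; adjusted p = 0.71), where 0% of genes were called. The call in KO was close to the threshold: with 1 library left out of the 16-library fit the adjusted p lay between 0.00255 and 0.411 and passed the threshold in 4 of 16 cases, when the library left out was either KO BMX-001 or either WT PBS library. With upper-quartile scaling in place of TMM the call was lost (-0.49 ± 0.10, adjusted p = 0.0728). In the 15-library fit the adjusted p was 0.00271, and 0.00035 to 0.0425 with 1 further library left out. KO BMX-001 replicate 2, the only library left in its group, was not left out there.

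**Figure D2:**
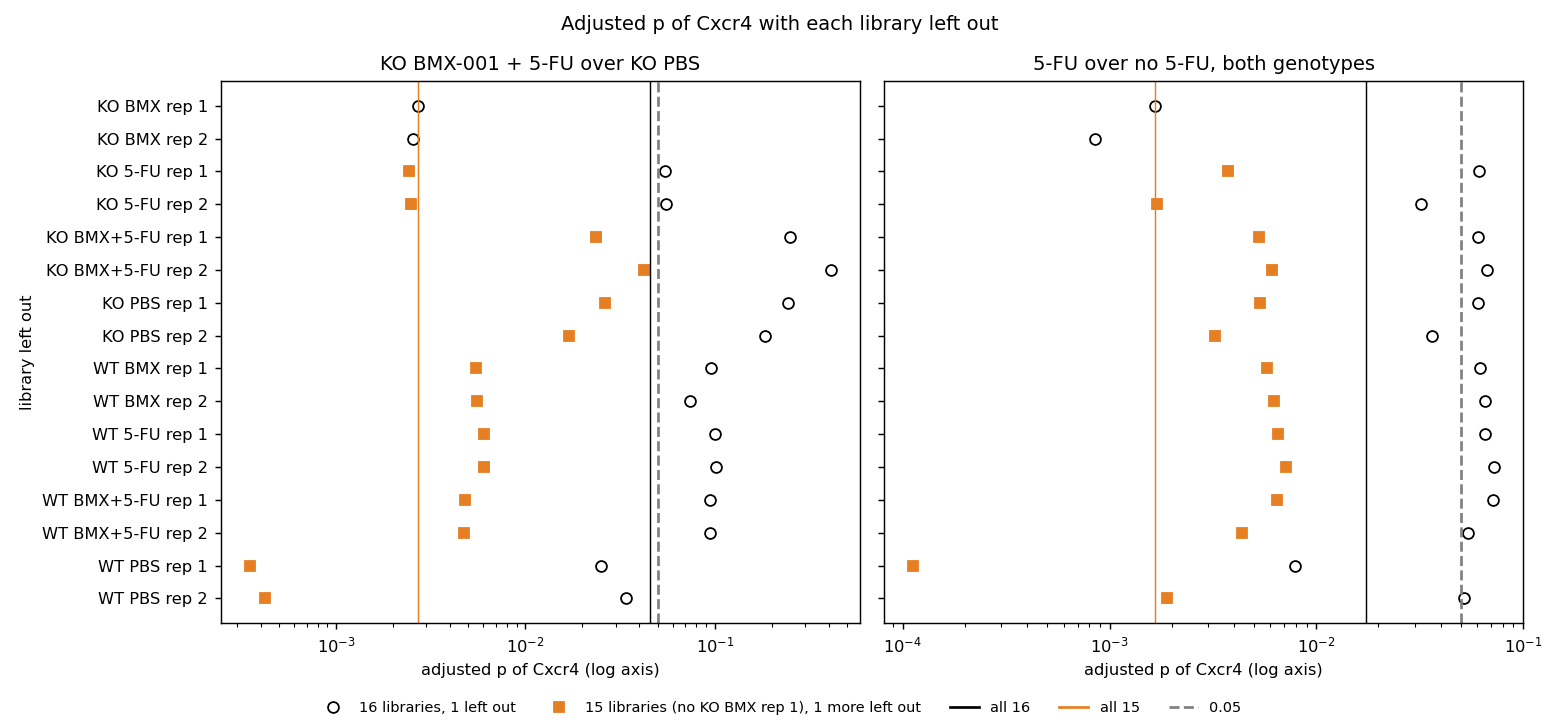
Adjusted p of Cxcr4 (x axis, log scale) when the library named on the y axis is left out, for KO given both drugs over KO PBS (left) and for 5-FU over no 5-FU in both genotypes (right). Open circles leave 1 library out of 16 and orange squares leave 1 more out of the 15-library fit; all orange squares lie below 0.05, the dashed line, and most open circles above it.

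5-FU was present in 4 of the 8 groups, so its libraries can also be set against those without it. Cxcr4 averaged 318.5 ± 35.1 CPM in the 4 KO libraries with 5-FU and 389.3 ± 40.7 CPM in the 4 without (SD; log2 fold change -0.29 ± 0.08, adjusted p = 0.085; 15-library fit, 0.0293). In WT it averaged 344 ± 9.73 CPM with 5-FU and 410.4 ± 48.1 CPM without (SD, n = 4 each; -0.25 ± 0.08, adjusted p = 0.296; 15-library fit, 0.0515). The WT libraries did not overlap, at 331.5 to 352.8 CPM with 5-FU and 381.4 to 482.1 CPM without, as was the case with lower values for 4.49% of all genes. The effects of 5-FU on Cxcr4 in the 2 genotypes did not differ detectably (interaction -0.04 ± 0.11, adjusted p = 0.917, 95% interval of the ratio 0.828 to 1.15).

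Averaged over genotypes, a comparison added after the values were seen, Cxcr4 was lower with 5-FU at 331.2 ± 27.5 CPM, against 399.9 ± 42.8 CPM without (SD, n = 8 each; 0.829-fold, 95% interval 0.764 to 0.899; log2 fold change -0.27 ± 0.05, adjusted p = 0.0174). The ranges overlapped, at 288.8 to 362.3 CPM with 5-FU and 353.5 to 482.1 CPM without. It was the 1 gene of the 9 called, and 2.39% of all genes were called lower. With 1 of the 16 libraries left out the adjusted p lay between 0.000854 and 0.0728 and passed in 5 of 16 cases, without either KO BMX-001 library, replicate 2 of KO 5-FU, replicate 2 of KO PBS or replicate 1 of WT PBS. The 15-library fit gave 0.00166, with 0.000112 to 0.00713 on leaving out a further library.

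BMX-001 without 5-FU was followed by lower Cxcr4 values that did not pass the test. In KO the means were 354.6 ± 1.58 CPM with BMX-001 and 424.1 ± 11.9 CPM with PBS (SD, n = 2 each; -0.26 ± 0.11, adjusted p = 0.139). In WT they were 383.2 ± 2.54 CPM with BMX-001 and 437.6 ± 63 CPM with PBS (-0.19 ± 0.11, adjusted p = 0.997). Adding BMX-001 to 5-FU gave -0.26 ± 0.11 in KO (adjusted p = 1) and -0.06 ± 0.11 in WT (adjusted p = 0.998). Between genotypes Cxcr4 was the 1 gene of the 9 with a negative value, with KO libraries at 353.9 ± 51.7 CPM and WT libraries at 377.2 ± 47.9 CPM (SD, n = 8 each; -0.10 ± 0.05, adjusted p = 0.472).

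Cxcr4 is also carried by B cell precursors, and other cell types moved in the same libraries. With 5-FU in both genotypes edgeR called 1 of 10 B cell markers lower, as it did 2.39% of all genes. This was Vpreb3, a gene of B cell precursors (log2 fold change -0.65 ± 0.14, adjusted p = 0.027). The unadjusted p was under 0.05 for 6 of the 10, against 3467 of all 19152 genes, and DESeq2 called 3 of the 10 and 1172 of all genes. The 10 B cell markers summed to 613.4 to 927.9 CPM in KO with 5-FU and 667.6 to 979.6 CPM in KO without, and to 880.9 to 1084 CPM in WT with 5-FU and 1071 to 1360 CPM in WT without. In the same comparison 8 of 10 erythroid markers were called lower, among them Epb42, a protein of the red cell membrane skeleton (-0.52 ± 0.06, adjusted p = 0.00031), and Alas2, which starts haem synthesis in red cells (-0.59 ± 0.07, adjusted p = 0.000823). The erythroid markers summed to 55150 to 67870 CPM in KO with 5-FU and 79410 to 90810 CPM in KO without, and to 47050 to 66700 CPM in WT with 5-FU and 60590 to 87640 CPM in WT without. In KO given both drugs the erythroid sum was 62640 to 67870 CPM, against 79410 to 90810 CPM with PBS, and the B cell sum 705.4 to 790.2 CPM, against 667.6 to 951.2 CPM. What part these cell types have in the lower Cxcr4 was not tested.

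Cxcr2 (ENSMUSG00000026180.10, chromosome 1), the receptor that opposes retention, was called in no comparison of the 16-library fit. In KO marrow it stood at 234.5 and 201.3 CPM with BMX-001, 262.9 and 206.9 CPM with 5-FU, 242.3 and 188.7 CPM with both drugs, and 328.9 and 239.5 CPM with PBS. In WT marrow it stood at 207.1 and 209.6 CPM with BMX-001, 226.9 and 236.4 CPM with 5-FU, 211.1 and 177.6 CPM with both drugs, and 236.3 and 190.2 CPM with PBS. The 2 KO PBS libraries both exceeded the 2 WT PBS libraries, and in WT marrow no treatment separated all its libraries from PBS. Its log2 fold change with 5-FU in WT was 0.01 ± 0.13 (adjusted p = 0.987), with a 95% interval of 0.831 to 1.22-fold. The ratio of Cxcr2 to Cxcr4 counts ran from 0.571 to 0.831 in KO with 5-FU and from 0.566 to 0.76 in KO without. In WT it ran from 0.521 to 0.67 with 5-FU and from 0.394 to 0.601 without, so the ranges overlapped in both genotypes.

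Csf3r (ENSMUSG00000028859.15, chromosome 4), the G-CSF receptor, was steady apart from a single library. In KO marrow it stood at 675.1 and 264.7 CPM with BMX-001, 300.4 and 282.2 CPM with 5-FU, 311.2 and 241.2 CPM with both drugs, and 378.7 and 317.3 CPM with PBS. The 8 WT libraries ran from 245.5 to 299.1 CPM, with a median of 272.3 CPM. Both KO PBS libraries were above all of these. They also exceeded the KO libraries given a drug, other than the one at 675.1 CPM. The value of 675.1 CPM belongs to the library that stands apart, where the ratio of Csf3r to Cxcr2 was 2.88, against 1.09 to 1.51 in the other 15. With that library the KO over WT difference was 0.32 ± 0.15 on the log2 scale (adjusted p = 0.406), and without it 0.11 ± 0.06 (adjusted p = 0.482). Likewise 5-FU in KO gave -0.51 ± 0.22 with it (adjusted p = 0.264) and -0.10 ± 0.10 without it (adjusted p = 0.684).

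S100a8 (ENSMUSG00000056054.10) and S100a9 (ENSMUSG00000056071.13), the 2 chains of calprotectin, were the most abundant of the genes and were called in no comparison of the 16-library fit. S100a8 ran from 4097 to 6942 CPM in KO (median 5061) and from 4102 to 5584 CPM in WT (median 4662). S100a9 ran from 6297 to 11010 CPM in KO (median 8437) and from 5750 to 9363 CPM in WT (median 7278). Both highest values came from the library that stands apart, and the genotypes overlapped for both genes. The largest S100a9 difference in WT was with 5-FU alone, at 5750 and 6941 CPM, against 7104 and 9363 CPM with PBS (log2 fold change -0.38 ± 0.22, adjusted p = 0.453). The ratio of S100a9 to S100a8 counts stayed between 1.39 and 1.83 in all 16 libraries. That span was close to the 1.32 to 1.83 of Mmp9 to Mmp8.

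Mmp8 (ENSMUSG00000005800.4, chromosome 9), the neutrophil collagenase, stood in KO marrow at 531.2 and 629.1 CPM with BMX-001, 770.5 and 698.4 CPM with 5-FU, 730.3 and 614.5 CPM with both drugs, and 1051 and 849.6 CPM with PBS. In WT marrow it ran from 586.1 to 819.9 CPM (median 685.9). Mmp9 (ENSMUSG00000017737.3, chromosome 2), the gelatinase of the tertiary granules, stood in KO marrow at 737.6 and 1007 CPM with BMX-001, 1019 and 940.1 CPM with 5-FU, 1114 and 851.1 CPM with both drugs, and 1435 and 1211 CPM with PBS. Every KO library given a drug was below both KO PBS libraries for both proteases. In WT this held for Mmp9 alone, at 874.2 to 1092 CPM in the 6 libraries given a drug and 1136 to 1149 CPM with PBS.

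None of these differences passed the edgeR test. The furthest was BMX-001 in KO, at 580.2 ± 69.2 CPM of Mmp8 with BMX-001 and 950.5 ± 143 CPM with PBS (SD, n = 2 each; log2 fold change -0.71 ± 0.17, adjusted p = 0.0811) and 872.5 ± 191 CPM of Mmp9 with BMX-001 and 1323 ± 158 CPM with PBS (-0.60 ± 0.18, adjusted p = 0.0882). DESeq2 called both there, as it did 9.18% of all genes, where edgeR called 0.00522%. That contrast holds the library that stands apart, whose values for both genes were the lowest of all 16. With it left out the 1 remaining BMX-001 library gave -0.60 ± 0.19 for Mmp8 (adjusted p = 0.459) and -0.39 ± 0.16 for Mmp9 (adjusted p = 0.536), on the assumption that it varies like the other groups. The ratio of Mmp9 to Mmp8 counts ran from 1.32 to 1.6 in KO and from 1.32 to 1.83 in WT.

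Retnlg (ENSMUSG00000022651.7, chromosome 16), a resistin-like secreted protein of rodent neutrophils, varied most among the 15 libraries, with a coefficient of variation of 18.4%, against 12.2% to 16.6% for the others. In KO marrow it stood at 1305 and 823.2 CPM with BMX-001, 967.6 and 933.7 CPM with 5-FU, 894.2 and 768.6 CPM with both drugs, and 1252 and 1297 CPM with PBS. In WT marrow it stood at 959.8 and 927.2 CPM with BMX-001, 674.2 and 812.5 CPM with 5-FU, 1077 and 797.1 CPM with both drugs, and 871.3 and 1087 CPM with PBS. The KO PBS libraries were above every WT library, and 1 of the WT libraries given 5-FU alone was the lowest of all 16. KO marrow given both drugs averaged 831.4 ± 88.8 CPM and KO PBS marrow 1275 ± 31.6 CPM (SD, n = 2 each; -0.62 ± 0.21, adjusted p = 0.241). The 15-library fit called this difference (-0.62 ± 0.14, adjusted p = 0.0206), in a fit that called 5.35% of all genes in this comparison.

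Padi4 (ENSMUSG00000025330.7, chromosome 4), needed for chromatin traps, was the least abundant of the 9. In KO marrow it stood at 166.6 and 114.2 CPM with BMX-001, 129.5 and 118.4 CPM with 5-FU, 128.1 and 112.2 CPM with both drugs, and 151.6 and 153.8 CPM with PBS. In WT marrow it ran from 97.67 to 143 CPM (median 111.4). KO exceeded WT in the mean, with KO libraries at 134.3 ± 20.5 CPM and WT libraries at 114.4 ± 14.1 CPM (SD, n = 8 each), with overlapping ranges. The log2 fold change of 0.23 ± 0.09 had the smallest p of the 9 in this comparison and did not pass (adjusted p = 0.298). Without the library that stands apart, which held the highest Padi4, the log2 fold change was 0.15 ± 0.06.

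Taken by comparison, KO over WT gave positive values for 8 of the 9 genes, with a median log2 fold change of 0.179, against 0.004 for all genes tested. edgeR called 0 of the 9 and 0.178% of all genes, 1 of the 9 had an unadjusted p under 0.05, as had 12.7% of all genes, and DESeq2 called 0. Without the library that stands apart the median was 0.095. In PBS marrow alone the median was 0.262, against -0.013 for all genes, and for 6 of the 9 (Cxcr2, Mmp8, Mmp9, Retnlg, Csf3r and Padi4) both KO libraries were above both WT libraries, as they were for 17.6% of all genes. No gene of the 9 was called there by edgeR, which called 0.0261% of all genes, or by DESeq2, and 2 had an unadjusted p under 0.05, against 4.44% of all genes.

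5-FU over no 5-FU gave negative values for 9 of 9 genes in KO, with a median of -0.228, against 0.009 for all genes. In WT it did so for 8 of 9, with a median of -0.131, against 0.005. edgeR called 0 of the 9 in both, while it called 1.9% of all genes in KO and 0.0574% in WT. An unadjusted p under 0.05 was reached by 4 of the 9 in KO, against 17.2% of all genes, and by 1 in WT, against 9.54%, and DESeq2 called 1 in KO, with 4.76% of all genes, and 0 in WT. Without the library that stands apart the KO median was -0.114, and Cxcr4 was called, as were 3.49% of all genes. The interaction of 5-FU with genotype had a median of -0.103 and called 0 of the 9 and 0% of all genes, with 0 unadjusted p under 0.05, against 6.79% of all genes, and 0 called by DESeq2. Its values were negative for 8 of the 9, but without the library that stands apart for 5, with a median of -0.039.

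5-FU alone against PBS called 0 of the 9 in either genotype. The 9 had a median of -0.29 in KO, where edgeR called 0.454% of all genes and 3 of the 9 had an unadjusted p under 0.05, as had 9.42% of all. In WT the median was -0.286, where 0.00522% of all genes were called and 1 of the 9 had an unadjusted p under 0.05, as had 14.4% of all. The groups did not overlap, with lower values under 5-FU, for 7 of the 9 in KO and 6 in WT, against 21.4% of all genes in KO and 27.5% in WT. In the 15-library fit Cxcr4 was called in WT (-0.32 ± 0.09, adjusted p = 0.0449), where that fit called 6.87% of all genes. DESeq2 called 0 of the 9 in either genotype.

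**Figure D3:**
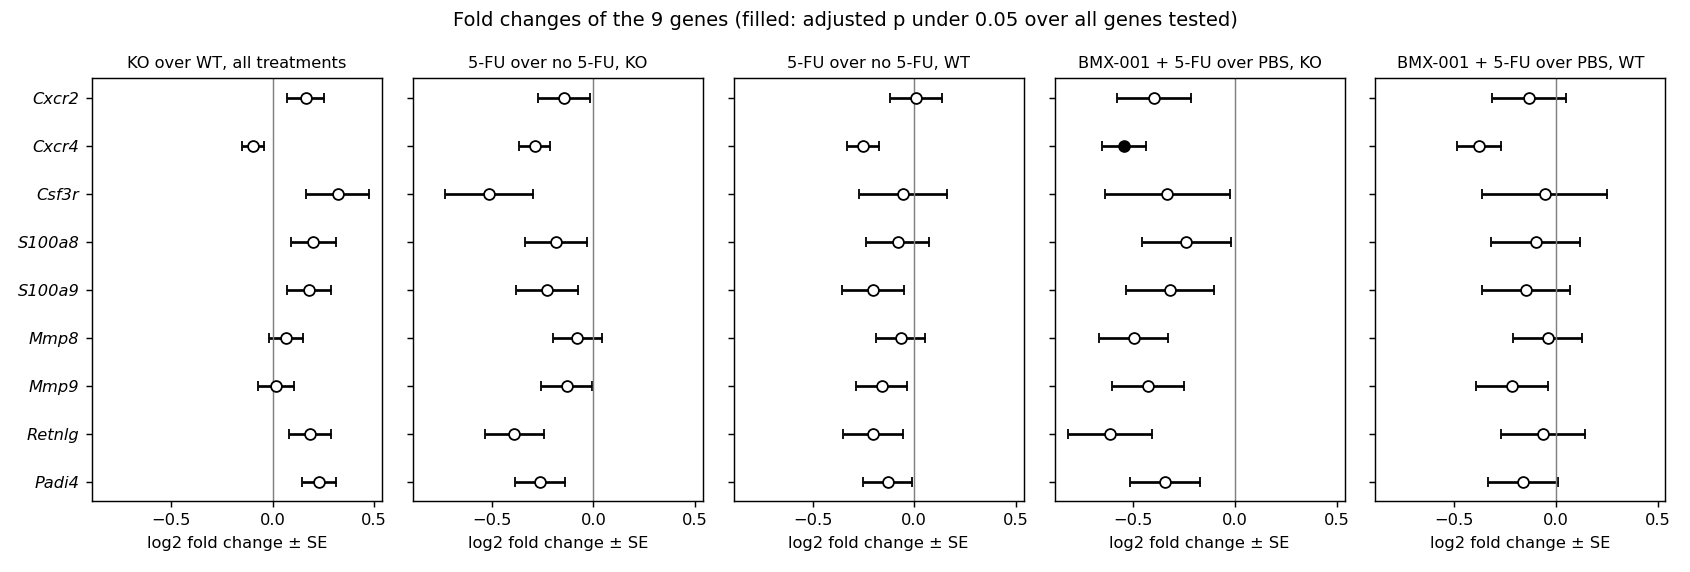
Log2 fold change ± SE of the 9 genes (x axis) in 5 comparisons of the 16-library edgeR fit, the group named first over the other. Only Cxcr4 in KO given both drugs over KO PBS is filled, which marks an adjusted p under 0.05; most values lie right of 0 for KO over WT and left of 0 for the drugs.

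Both drugs against PBS gave negative values for 9 of 9 genes in each genotype, with a median of -0.399 in KO, against 0.03 for all genes, and -0.134 in WT, against 0.001. In KO the groups did not overlap for 7 of the 9, all lower with both drugs, against 26.1% of all genes, and 5 had an unadjusted p under 0.05, against 12.6%. In WT this was so for 2 (Cxcr4 and Mmp9), against 21% of all genes, and 1 had an unadjusted p under 0.05, against 6.57%, with 0 called by edgeR or DESeq2. These contrasts and those of each drug alone share their PBS libraries, so their like directions are not separate observations.

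BMX-001 against PBS called 0 of the 9 by edgeR in either genotype, where 0.00522% of all genes were called in KO and 0% in WT. Unadjusted p-values under 0.05 numbered 3 of 9 in KO, against 30.6% of all genes, and 0 in WT, against 5.1%, and DESeq2 called 2 in KO (Mmp8 and Mmp9), where it called 9.18% of all genes, and 0 in WT. The median was -0.258 in KO, with 6 of 9 values negative, and -0.072 in WT. In KO the groups did not overlap for 4 of the 9, lower with BMX-001, against 25.4% of all genes. Without the library that stands apart, which leaves 1 BMX-001 library, the KO median was -0.396, all 9 values were negative and all 9 were below both PBS libraries, against 37% of all genes. The 15-library edgeR fit called 0 of the 9 and 0% of all genes there, and 6 had an unadjusted p under 0.05, against 9% of all. When BMX-001 was added to 5-FU the median was -0.127 in KO and 0.071 in WT, 0 of the 9 and 0% of all genes were called in either genotype, 1 of the 9 had an unadjusted p under 0.05 in KO, against 2.61% of all genes, and 0 in WT, against 3.93%, and DESeq2 called 0.

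Set out as any drug against PBS, a view added after the values were seen and given without a test, 3 of the 9 genes (Cxcr4, Mmp8 and Mmp9) were lower in all 6 KO libraries given a drug than in both KO PBS libraries, as were 8.69% of all genes. Without the library that stands apart 7 of the 9 were, all but Cxcr2 and S100a8, against 11.5% of all genes. In WT 2 of the 9 were (Cxcr4 and Mmp9), against 9.44%. Cxcr4 and Mmp9 were the 2 for which it held in both genotypes, as it did for 2.69% of all genes. No gene of the 9 was higher in all libraries given a drug, in either genotype, as 6.58% of all genes were in KO and 8.9% in WT.

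**Figure D4:**
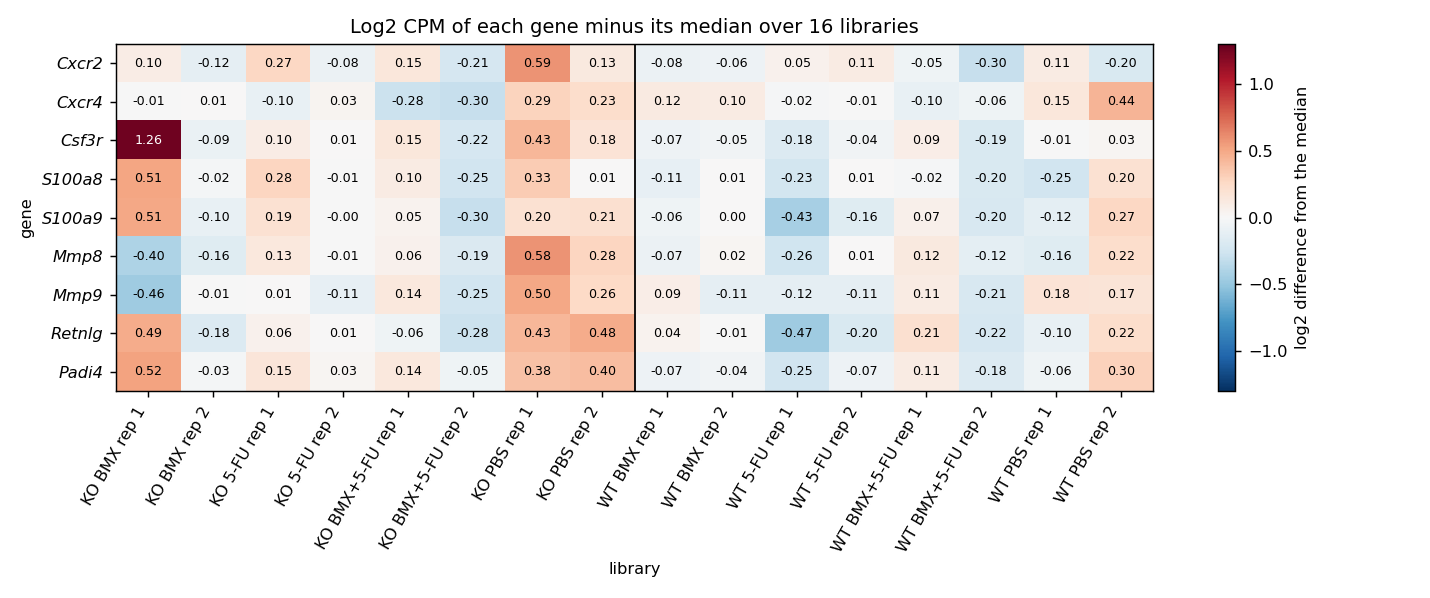
Log2 CPM of each gene (rows) minus its median over the 16 libraries (columns, KO left of WT); red is above and blue below the median, and numbers are the differences. KO PBS libraries are above the median for all 9 genes, and the replicate 1 library of KO mice given BMX-001 holds the largest difference, 1.265 for Csf3r.

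Across the 15 libraries Pearson's r between the 9 genes, on the log2 CPM scale, ran from 0.182 to 0.916. It was 0.916 between Mmp8 and Csf3r (Spearman's rho 0.871), 0.912 between Retnlg and Padi4 (0.825) and 0.903 between Retnlg and S100a9 (0.946). It was 0.838 between the calprotectin chains (0.829) and 0.781 between the proteases (0.671). The lowest between 2 effector genes was 0.586, for Mmp9 and S100a8 (0.518). Cxcr2 reached 0.809 with Csf3r (0.746) and 0.696 with Mmp9 (0.557). Cxcr4 reached at most 0.581, with Retnlg (0.554), and r between Cxcr2 and Cxcr4 was 0.182 (0.0786). These are descriptions over libraries that share groups and depth.

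Among 9330 other genes of at least moderate level, the 5 most like the mean of the 9 were Plbd1, Atxn10, Mcemp1, Cmtm6 and Pygl, with Pearson's r of 0.95 to 0.959 over the 15 libraries. The gene most like Cxcr4 was Cytip (r = 0.943), and the gene most like Cxcr2 was Fpr1, the formyl peptide receptor (r = 0.899). Mcemp1 was most like both Mmp8 (r = 0.936) and Csf3r (r = 0.938). Fgr, a Src family kinase of myeloid cells, was most like Mmp9 (r = 0.941). Prdx5 was most like Retnlg (r = 0.94), Il1rn, the interleukin-1 receptor antagonist, most like S100a8 (r = 0.89), Anxa1 most like S100a9 (r = 0.926) and AA467197 most like Padi4 (r = 0.954).

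The partners of these genes were measured too. For this and the lists that follow, these were the counts over all 19152 genes. With 5-FU in both genotypes edgeR called 565, DESeq2 called 1172 and 3467 had an unadjusted p under 0.05. In KO given both drugs over KO PBS the same counts were 116, 494 and 2411. Among 13 genes of release ligands, their receptors and related factors, 9 were tested and edgeR called 0 with 5-FU in both genotypes, where 3 had an unadjusted p under 0.05 and DESeq2 called 2, and 0 in KO given both drugs, where 1 had an unadjusted p under 0.05 and DESeq2 called 1. Cxcl12, the CXCR4 ligand made by stroma, had a mean of 375.7 CPM and ranged from 88.31 to 599.6 CPM, with a log2 fold change under 5-FU in both genotypes of 0.53 ± 0.30 (adjusted p = 0.388). Ppbp, a platelet chemokine that binds CXCR2, ranged from 21.01 to 328.1 CPM (0.73 ± 0.53, adjusted p = 0.507). Il17ra, an interleukin-17 receptor chain, gave -0.22 ± 0.06 (adjusted p = 0.0678). The neutrophil chemokine genes Cxcl1 and Cxcl3 and the G-CSF gene Csf3 averaged under 0.1 CPM. Cxcl2, a neutrophil chemokine gene of the same list, was higher, with a mean of 5.267 CPM. It stood at 52.59 CPM in the library that stands apart and at 0.2257 to 19.7 CPM in the others. Cxcl5, also in that list, averaged 0.5454 CPM.

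Of the genes of G-CSF signalling the 3 most abundant were Jak1, a kinase that binds cytokine receptors, Lyn, a Src family kinase, and Ptpn6, a phosphatase that dampens such signals. With 5-FU in both genotypes Jak1 gave a log2 fold change of -0.09 ± 0.06, Lyn -0.16 ± 0.06 and Ptpn6 -0.14 ± 0.06. edgeR called none of these 3 (adjusted p = 0.402, 0.151 and 0.225). They do not stand for the list of 14, whose other genes are not reported here. An unadjusted p under 0.05 was reached by 7 of the 14 with 5-FU, against 3467 of all 19152 genes. In KO given both drugs 8 of the 14 reached it, against 12.6% of all genes. Of 12 genes that carry or switch off chemokine receptor signals, 1 was called lower with 5-FU, Grk2, a kinase that turns off G protein-coupled receptors (-0.22 ± 0.05, adjusted p = 0.0356). Gnai2 and Arrb1, also abundant in that list, gave -0.09 ± 0.09 and -0.07 ± 0.05.

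Of 12 receptors and relatives of calprotectin 3 were called lower with 5-FU in both genotypes. These were Cd36, a scavenger receptor also present on erythroid cells (-0.62 ± 0.09, adjusted p = 0.00305), S100a4 (-0.70 ± 0.14, adjusted p = 0.0149) and S100a10 (-0.26 ± 0.06, adjusted p = 0.0451). In KO given both drugs Cd36 alone of this list was called lower (-0.97 ± 0.19, adjusted p = 0.0447). Of 6 metalloproteinase inhibitors edgeR and DESeq2 called 0 in these comparisons, with 0 unadjusted p under 0.05 for 5-FU and 2 in KO given both drugs. Timp2, the most abundant, gave -0.07 ± 0.05 with 5-FU and -0.26 ± 0.10 in KO given both drugs. Of 11 genes of chromatin traps and the other PADI enzymes edgeR called 0 in both. With 5-FU 3 had an unadjusted p under 0.05 and DESeq2 called 2, and in KO given both drugs 2 had one and DESeq2 called 1.

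Beside the 9 genes stood 54 other late neutrophil genes, of which 4 were called lower with 5-FU in both genotypes: Alox5 and Alox5ap, which start leukotriene synthesis (-0.26 ± 0.05 each, adjusted p = 0.0179 and 0.0206), Cyba, a chain of the NADPH oxidase (-0.23 ± 0.05, adjusted p = 0.0198), and Mxd1 (-0.44 ± 0.09, adjusted p = 0.0215). The list of 54 had 52 negative values and a median of -0.164, against 0.014 for all genes. Of all genes edgeR called 2.39% lower in this comparison. DESeq2 called 12 of the 54, against 1172 of all 19152 genes. In KO given both drugs over KO PBS 2 were called lower, Ly6g, the surface marker of mouse neutrophils (-0.75 ± 0.14, adjusted p = 0.0394), and Alox5ap (-0.55 ± 0.11, adjusted p = 0.0449), with a median of -0.395, against -0.399 for the 9 genes. Of all genes edgeR called 0.574% lower in that comparison. DESeq2 called 11 of the 54 there, against 494 of all 19152 genes. KO over WT had 49 positive values of 54 with a median of 0.16. There edgeR called 0, against 0.178% of all genes, and DESeq2 called 3, against 349 of all 19152 genes. An unadjusted p under 0.05 was reached by 21 of the 54, against 12.7% of all genes.

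The earlier granule genes did not share one direction. The 17 secondary granule genes had a median of -0.125 with 5-FU in both genotypes and of -0.445 in KO given both drugs, and edgeR called 0 in either. The unadjusted p was under 0.05 for 4 of them with 5-FU and 8 in KO given both drugs, DESeq2 called 2 and 3, and the 15-library edgeR fit 6 and 10. The 14 primary granule genes, which mark promyelocytes, had medians of 0.166 and -0.066 in the same comparisons. edgeR and DESeq2 called 0 of these, with 4 and 1 unadjusted p under 0.05. Of 13 granulocyte transcription factors Spi1, which encodes PU.1, and Rara were called lower with 5-FU (-0.21 ± 0.05 and -0.23 ± 0.06, adjusted p = 0.0451 and 0.0459). The 12 genes listed as mature neutrophil markers summed to 13840 to 17440 CPM in KO given both drugs and 21370 to 22790 CPM in KO given PBS. That sum is mostly Ngp, Ltf, Lcn2 and Camp, with means of 6814, 4775, 2092 and 1687 CPM over the 16 libraries. These genes and Cd177 are also among the secondary granule genes, so the 2 lists are not separate measures. Ly6g averaged 94.27 CPM. The 10 monocyte markers, of which edgeR and DESeq2 called 0, the 15-library edgeR fit called 4 (Cx3cr1, Csf1r, F13a1 and Ly6c2) and 7 had an unadjusted p under 0.05, summed to 1674 to 1969 CPM in KO given both drugs and 3156 to 3312 CPM in KO given PBS. Their part in the differences of the 9 genes was not tested.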

How the data were processed

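Whole marrow RNA-seq of 16 libraries was deposited as raw counts per Ensembl gene, counted by the authors with featureCounts on GRCm39, per the submitters' processing notes, which list R 4.3.0, DESeq2 1.38.3, Salmon 1.4.0, FastQC 0.12.1 and Trim Galore 0.6.4 as well. For the strand setting, the annotation release and the aligner, the sources used here name none. IDs without a symbol held 2.6899% of counts.

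Counts were fitted here in edgeR 4.0.16 (R 4.3.3, limma 3.58.1) with TMM scaling, its filter on low counts, 8 group means and the robust quasi-likelihood test, with Benjamini-Hochberg adjustment over 19152 genes and a threshold of 0.05. The steps were run on simulated counts for a single comparison, 5-FU over no 5-FU in KO. Those counts held no library that stands apart, and comparisons between single groups were not simulated. Levels are CPM, and intervals are 95%. Alternatives were DESeq2 1.42.0, other scalings, no filter, a replicate block, smaller fits and leaving out libraries. Comparisons of 5-FU in both genotypes and of any drug with PBS were added after the values were seen. All 9 genes are named by rule, as are genes of the lists that were called or were the most abundant, apart from an item not reported here. The members and lists were chosen with earlier results of these data known. Promoters come from RefSeq (GRCm38.p6) and exon lengths from GENCODE M21.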

Additional observations from a re-analysis of the deposited data

Results flagged for a closer look

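Libraries of 1 set that lay far from the rest, by Dixon's test at its 95% critical value, were sought for the 9 genes in 54 sets of 4 or 8 libraries. Chance flags about 1 set in 20. There were 5 such cases, in 3 libraries.

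Csf3r stood at 675.1 CPM in replicate 1 of KO mice given BMX-001, with the nearest of the 8 KO libraries at 378.7 CPM (gap over range 0.683, critical value 0.526). Retnlg stood at 823.2 CPM in replicate 2 of that group, and the nearest of the 4 KO libraries without 5-FU was at 1252 CPM (0.891, critical value 0.829). In replicate 2 of WT PBS mice Cxcr4 stood at 482.1 CPM, with the nearest WT library at 393 CPM, and was far from the rest both among all 8 WT libraries (0.592) and among the 4 without 5-FU (0.885). Padi4 stood at 143 CPM in the same library, with the nearest of the 4 WT libraries without 5-FU at 112.8 CPM (0.944).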

How the results depend on the processing

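No result for the 9 genes changed sign while called under any alternative. Cxcr4 in KO given both drugs over PBS kept its sign in 37 of 37 alternatives and was called in 23. The number of the 9 called in that comparison, 1 in the 16-library fit, was 0 with upper-quartile factors, 0 with the replicate block (Cxcr4 adjusted p = 0.0641), 2 with no filter on low counts, 3 with the compared groups only (Cxcr4, Retnlg and Padi4) and 2 in the 15-library fit. For 5-FU in both genotypes it was 3 with no filter, against 1. For 5-FU in KO it was 1 with DESeq2, 2 with no filter and 1 in the 15-library fit, against 0. For BMX-001 over PBS in KO it was 2 with DESeq2 and 3 with no filter, against 0. For KO over WT it was 1 with no filter, and for 5-FU over PBS in WT 1 in the 15-library fit, against 0 in both.

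With 1 of the 16 libraries left out the number called ran from 0 to 5 for 5-FU in both genotypes and for 5-FU in KO, 0 to 4 for KO over WT and for BMX-001 over PBS in KO, 0 to 2 in KO given both drugs over PBS, and 0 to 1 for the interaction and for 5-FU over PBS in WT. The highest counts came without replicate 2 of KO BMX-001, which leaves the library that stands apart alone in its group. With a further library left out of the 15 it ran from 1 to 2 for 5-FU in both genotypes, 0 to 1 for 5-FU in KO, in WT, and over PBS in KO, 0 to 4 for 5-FU over PBS in WT, 1 to 4 in KO given both drugs over PBS and 0 to 1 in WT given both drugs over PBS. The cause was not tested.

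The counts over all genes moved more. With 5-FU in both genotypes edgeR called 565 genes, DESeq2 1172, the fit with no filter 1723 and the 15-library fit 1608. In KO given both drugs over PBS these were 116, 494, 646 and 1054, with 47 under upper-quartile factors and 1018 with the compared groups only. For KO over WT they were 34, 349, 879 and 273. For 5-FU in KO they were 364, 912, 1790 and 687, with 64 for compared groups only, and in WT 11, 225, 430 and 382, with 4 under upper-quartile factors and 425 for compared groups only. For 5-FU over PBS they were 87, 372, 737 and 556 in KO and 1, 473, 634 and 1353 in WT. For BMX-001 over PBS in KO they were 1, 1758, 3651 and 0, and for the interaction 0, 27, 202 and 0. Upper-quartile factors moved the median of all genes by 0.102 (log2) for BMX-001 over PBS in KO.

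Same-numbered libraries did not deviate together: over 28 pairs of groups r ran from -0.564 to 0.4, and 9 were over 0.1. The replicate block changed no call of the 9 genes other than that of Cxcr4 in KO given both drugs. Depth was 27305707 to 39909188 counts. What part depth and the spread between 2 libraries a group have in the precision was not tested.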

Other observations

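Markers of other marrow cells that stand in no result above were also summed up by list. The 10 megakaryocyte markers all had positive values with 5-FU in both genotypes, with a median log2 fold change of 0.476 in 16 libraries and 0.281 in 15, and edgeR and DESeq2 called 0 of them, with 1 unadjusted p under 0.05. Of 10 macrophage markers edgeR called 2 lower in KO than in WT, against 0.178% of all genes called. These were Marco, a scavenger receptor, and Cd5l, a secreted protein of tissue macrophages. Marco was near the floor, with a mean of 0.6174 CPM and a range of 0 to 1.685 CPM, and Cd5l averaged 32.17 CPM. The other macrophage markers were not called. Of 10 progenitor markers edgeR called 1, Sox4, lower with 5-FU in both genotypes (-0.52, adjusted p = 0.0162), as it did 2.39% of all genes. All 10 B cell markers had negative values in KO over WT, with a median of -0.358. For these edgeR called 0, against 0.178% of all genes, and DESeq2 called 5, against 349 of all 19152 genes. An unadjusted p under 0.05 was reached by 9 of the 10, against 12.7% of all genes.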
